A study of Mus musculus with 6 samples.

Results

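The genes described here are 51 ligands, binding proteins, receptors, Smads, regulators and targets of the transforming growth factor-β (TGF-β) superfamily, chosen by symbol, and all 51 are among the 21033 genes of the count table. The cells were primary synovial fibroblasts, which build the lining of joints, kept in culture over 3 passages after isolation from the ankle of hTNFtg mice. These animals express human TNF from a transgene and become arthritic. Cells received 10 µM compound 33 for 48 h or, as vehicle controls, DMSO for the same time, with 3 libraries per group. Both groups carried the transgene, and no group without it was analysed here. The sources used here do not give the age of the mice, how many there were, or whether the replicates of a group are separate animals or cultures. The p-values thus reflect how far these libraries differed from each other, and that spread may be technical.

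The superfamily signals through one scheme. A dimeric ligand of the TGF-β, bone morphogenetic protein (BMP), growth and differentiation factor (GDF) or activin class brings type II and type I receptor kinases together, the type I receptor phosphorylates a receptor-regulated Smad, and this enters the nucleus with Smad4. TGF-β and activin act mainly through Smad2 and Smad3, BMPs through Smad1 and Smad5, while inhibitory Smads, Smurf ubiquitin ligases and the corepressors Skil and Tgif1 restrain the response. In fibroblasts TGF-β is known for inducing matrix and contractile genes, and BMPs for inducing the Id genes, whose proteins block helix-loop-helix transcription factors.

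The compound 33 libraries held 1594052 to 2384850 reads and the DMSO libraries 1913730 to 2897207 reads. Levels are CPM, the count of a gene scaled to a fixed library size, and since the 3′ end method yields reads near the end of each transcript, levels of different genes carry no correction for length. All 7 fibroblast markers passed the filter on low counts, with a summed level of 8363 to 10711 CPM with compound 33 and 9564 to 11712 CPM with DMSO. Among them Thy1 averaged 486 ± 52.0 CPM with compound 33 and 765 ± 166 CPM with DMSO, without overlap (unadjusted p = 0.0128 in edgeR, adjusted p = 0.605), and the other 6 had overlapping groups. Of markers of other cells, those of macrophages and leukocytes summed to 53.5 to 99.3 CPM with compound 33 and 63.1 to 136 CPM with DMSO, carried mostly by Lyz2 and Cd14. Those of mural cells summed to 55.6 to 99.9 CPM with compound 33 and 53.0 to 84.9 CPM with DMSO. Of these, Cspg4 averaged 28.6 ± 4.12 CPM with compound 33 and 17.7 ± 3.60 CPM with DMSO, without overlap. The other mural markers had overlapping groups and did not share that direction. Mcam averaged 42.2 ± 23.1 CPM with compound 33 and 41.7 ± 17.5 CPM with DMSO. Rgs5 had 0, 3 and 1 reads with compound 33, against 6, 2 and 11 with DMSO. Notch3 averaged 4.91 CPM with compound 33 and 4.24 CPM with DMSO, and Myh11 had at most 1 read in any library. Markers of cartilage, bone, muscle and epithelium stayed under 10 CPM in sum in every library, those of skeletal muscle at 2.49 to 4.89 CPM with compound 33 and 0.530 to 0.902 CPM with DMSO, and Acan, Sp7, Ibsp, Dmp1, Krt5, Krt8 and Krt18 had no read. The part of these marker differences in the results below was not tested. Hyou1, the chaperone gene that the series title names, stood at 94.9 ± 3.67 CPM with compound 33 and 86.7 ± 34.1 CPM with DMSO (SD, n = 3 each).

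With compound 33, transcripts of several ligands stood lower than with DMSO, and those of one receptor, Acvrl1, stood higher. None of these differences passed the test over all genes. Of the 51 genes 45 passed the filter on low counts, and edgeR's quasi-likelihood test passed 0 of them at an adjusted p under 0.05, against 0.0296% of all 10124 tested genes. DESeq2 also passed 0, against 0.179% of all genes with an adjusted p, and limma-voom 0, against 0.0198%. An unadjusted p under 0.05 was reached in edgeR by 6 of the 45, or 13.3%, where 6.87% of all tested genes reached it. The number was also 6 of the 45 in limma-voom, where 6.75% of all tested genes did so. In DESeq2 it was 6 of all 51 members, where 4.2% of all 14851 genes with a p did so. DESeq2 was run without this low-count filter, so its shares do not compare directly with the others. The members were chosen with earlier results of these data known, so counts of members beside the background are not independent support. The 6 in edgeR were Tgfb2, Tgfb3, Bmp2, Gdf11 and Tgfbi, lower with compound 33, and Acvrl1, higher.

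Groups did not overlap for 7 members, 15.6% of those tested, where 13.4% of all tested genes had such groups, so this count lay near the background. Of the 7, Smad1 was higher with compound 33, in which direction 6.64% of all tested genes had separate groups. The other 6, Tgfb3, Bmp2, Gdf11, Acvr1, Smurf2 and Tgfbi, were lower, against 6.73% of all tested genes. A negative log2 fold change was found for 26 of the tested members, 57.8% against 51.1% of all tested genes, and the median was -0.10 against -0.01 over all genes.

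**Figure D1:**
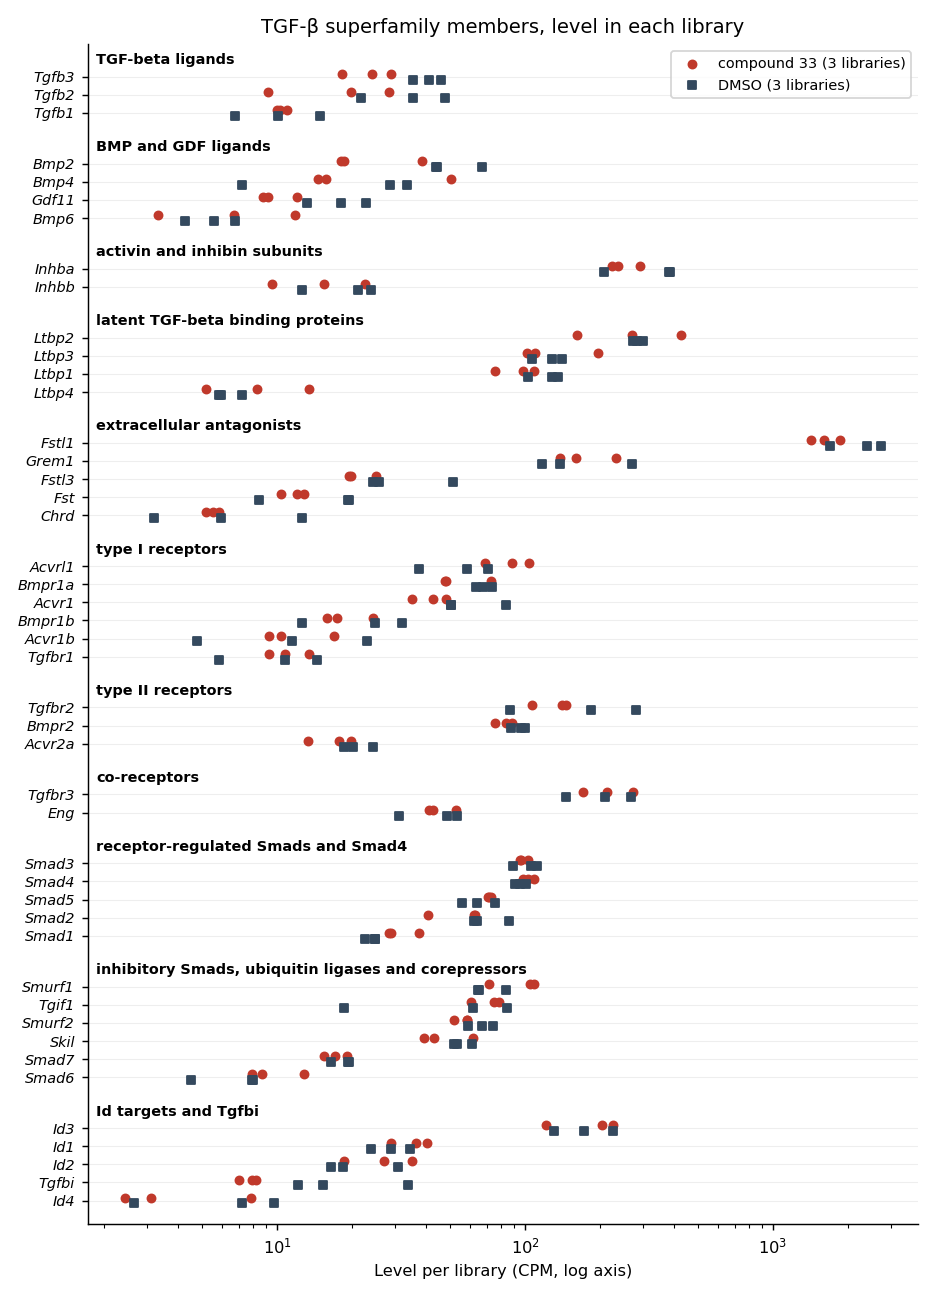
Level of each of the 45 tested members in every library, in CPM on a log axis, grouped by role, with circles for 3 compound 33 libraries and squares for 3 DMSO libraries. The levels run from 2.45 CPM for Id4 in a compound 33 library to 2719 CPM for Fstl1 in a DMSO library, and for 38 members the groups overlap.

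The precision of 3 libraries per group limited what could be seen. The median standard error of a member's log2 fold change was 0.28. The 95% interval lay within a 2-fold difference in either direction for 26 of the 45 tested members, and for the remaining 19, which include the 6 with an unadjusted p under 0.05, it reached beyond a 2-fold difference in at least one direction. In bulk samples, fewer cells of a type and less RNA per cell cannot be told apart.

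Among the 3 TGF-β ligands, Tgfb2 and Tgfb3 stood lower with compound 33 and Tgfb1 did not. Tgfb3 had 18.3, 24.0 and 28.8 CPM in the compound 33 libraries, against 40.8, 35.2 and 46.0 CPM in the DMSO libraries. Every compound 33 library thus lay below every DMSO library, by 1.71-fold in the fitted estimate (log2 fold change -0.77, SE 0.25), and the gene did not pass (edgeR adjusted p = 0.575). Tgfb2 had 9.17, 19.9 and 28.3 CPM with compound 33, against 21.7, 35.2 and 47.7 CPM with DMSO. Its groups overlapped, and compound 33 replicate 1 and DMSO replicate 1 were the lowest of their groups (log2 fold change -0.86, SE 0.38, edgeR adjusted p = 0.720). Tgfb1, the isoform best known from immune regulation and scarring, had 11.0, 9.95 and 10.3 CPM with compound 33, against 14.8, 6.77 and 10.1 CPM with DMSO. The compound 33 values of Tgfb1 lay inside the DMSO range, with a log2 fold change of -0.01 and a 95% interval from -0.81 to 0.79.

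Summed over the 3 isoforms, TGF-β ligand transcripts reached 38.5, 53.9 and 67.4 CPM in the compound 33 libraries, against 77.4, 77.1 and 103.7 CPM in the DMSO libraries, without overlap. Such sums were made for every role, and those of all other roles had overlapping groups. The sum adds up Tgfb2 and Tgfb3 again, so it is not separate support for their differences. The share of Tgfb1 among the isoform reads was 28.6%, 18.5% and 15.3% with compound 33, against 19.2%, 8.77% and 9.73% with DMSO. These shares rest on 63 to 131 isoform reads per compound 33 library and 146 to 298 per DMSO library, and the exact 95% binomial interval of the highest, compound 33 replicate 1, ran from 17.9% to 41.3%. Intervals and limits of this kind cover counting error only. The groups' shares of Tgfb1 overlapped, and Tgfb3 made up 47.6%, 44.6% and 42.7% of the reads with compound 33, against 52.7%, 45.6% and 44.3% with DMSO. On mm10, Tgfb3 lies on chromosome 12 at 86056745 to 86079041 and Tgfb2 on chromosome 1 at 186622792 to 186705989, both on the minus strand. Exons of both overlap annotated genes of the opposite strand, Gm37804 and Gm48008 for Tgfb3 and Gm29491 for Tgfb2, and without a stated strand setting such reads cannot be told apart.

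**Figure D2:**
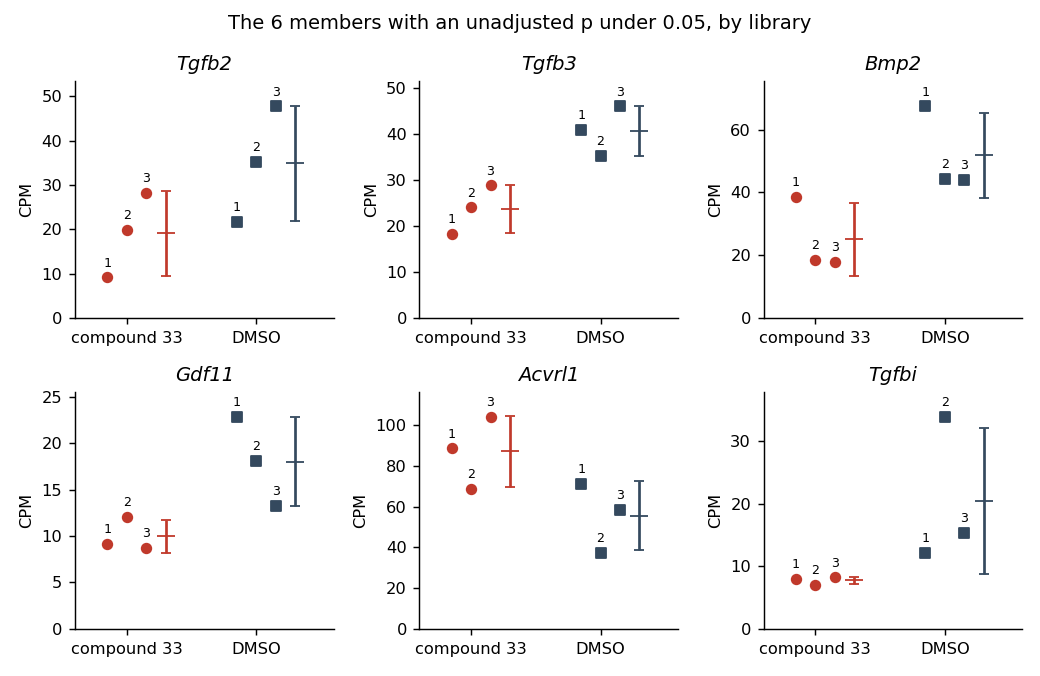
Level in CPM of the 6 members with an unadjusted p under 0.05, with compound 33 at the left and DMSO at the right of each panel, replicate numbers above the points, and mean with SD as bars. Tgfb3, Bmp2, Gdf11 and Tgfbi have groups that do not overlap, while Tgfb2 and Acvrl1 have overlapping groups.

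Of the 8 BMP and GDF ligands, 4 passed the filter on low counts, and Bmp2 and Gdf11 stood lower with compound 33. Bmp2, a ligand known for inducing bone and cartilage, had 38.5, 18.7 and 18.0 CPM in the compound 33 libraries, against 67.3, 44.2 and 43.9 CPM in the DMSO libraries. The groups did not overlap, and replicate 1 was the highest library of each group. The fitted difference was 2.09-fold (log2 fold change -1.06, SE 0.32, edgeR adjusted p = 0.505). Gdf11, a close relative of myostatin that signals through Smad2 and Smad3, had 9.17, 12.0 and 8.75 CPM with compound 33, against 22.8, 18.0 and 13.2 CPM with DMSO. Its highest compound 33 library lay just under its lowest DMSO library (log2 fold change -0.82, SE 0.33, edgeR adjusted p = 0.697). Bmp2 lies on chromosome 2 at 133552159 to 133562885 and Gdf11 on chromosome 10 at 128882295 to 128891718 on mm10, and exons of neither overlap another annotated gene.

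The other ligands of this class were low or variable. Bmp4 had 14.7, 15.8 and 50.4 CPM with compound 33, against 28.6, 7.22 and 33.4 CPM with DMSO, so that libraries of 1 group differed more than the groups did. Bmp6, known as a regulator of iron balance in the liver, averaged 7.29 ± 4.29 CPM with compound 33 and 5.53 ± 1.26 CPM with DMSO (SD, n = 3 each), and its exons overlap those of Txndc5 on the opposite strand. Gdf5, a joint formation factor, had 1, 5 and 3 reads with compound 33 and 2, 4 and 0 with DMSO. Gdf6 had 5 to 7 reads per library with compound 33 and 4 to 19 with DMSO. Gdf10 had 13 reads in compound 33 replicate 1 and 1 to 4 in each of the others. Bmp7 had 2 reads in DMSO replicate 3 and 0 elsewhere, and in those other libraries a count of 0 allows up to 1.24 to 1.83 CPM.

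Inhba, the gene of the activin A subunit, had the highest read level of the ligand genes. It had 237, 225 and 290.3 CPM in the compound 33 libraries, against 384, 208 and 382 CPM in the DMSO libraries. DMSO replicate 2 lay below all compound 33 libraries and the other DMSO libraries lay above them (log2 fold change -0.37, SE 0.25, edgeR adjusted p = 0.847). Inhbb, the activin B subunit, averaged 15.9 ± 6.55 CPM with compound 33 and 19.2 ± 5.87 CPM with DMSO, with overlapping groups.

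Latent TGF-β binding proteins hold the inactive ligand in the matrix, and none of the 4 Ltbp genes reached an unadjusted p under 0.05 in edgeR. Ltbp2, which unlike its relatives is known not to bind latent TGF-β, had 162, 271 and 427 CPM with compound 33, against 299.6, 282 and 273 CPM with DMSO. The compound 33 libraries lay on both sides of a narrow DMSO range (log2 fold change 0.01, SE 0.29). Ltbp1 averaged 94.2 ± 17.0 CPM with compound 33 and 122 ± 17.7 CPM with DMSO (log2 fold change -0.38, SE 0.22, edgeR adjusted p = 0.810). Ltbp3 averaged 136 ± 52.9 CPM with compound 33 and 125 ± 17.5 CPM with DMSO. Ltbp4 was low, at 8.96 ± 4.19 CPM with compound 33 and 6.32 ± 0.776 CPM with DMSO.

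Extracellular antagonists were dominated by Fstl1, a secreted follistatin-like glycoprotein made by mesenchymal cells. It had 1866, 1422 and 1600.3 CPM in the compound 33 libraries, against 1698, 2719 and 2395 CPM in the DMSO libraries. DMSO replicate 1 lay inside the compound 33 range and the other DMSO libraries above it (log2 fold change -0.48, SE 0.24, edgeR adjusted p = 0.741). In the authors' deposited table Fstl1 has an unadjusted p of 0.0393 and an adjusted p of 0.842. Fstl3, which binds and neutralizes activin, averaged 21.5 ± 3.09 CPM with compound 33 and 33.8 ± 15.3 CPM with DMSO, where replicate 1 had 51.4 CPM, and its exons overlap those of Prss57 on the opposite strand. Fst, or follistatin, averaged 11.8 ± 1.26 CPM with compound 33 and 15.8 ± 6.33 CPM with DMSO.

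The BMP antagonist Grem1 averaged 177 ± 49.6 CPM with compound 33 and 175 ± 83.0 CPM with DMSO, and replicate 1 was the highest library in each group. Chrd, or chordin, averaged 5.48 ± 0.329 CPM with compound 33 and 7.24 ± 4.86 CPM with DMSO, and Nog, or noggin, had at most 2 reads in any library. Of the 5 tested antagonists, 4 had estimates below 0, and 0 reached an unadjusted p under 0.05 in edgeR, against 1 in DESeq2, Fstl1.

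**Figure D3:**
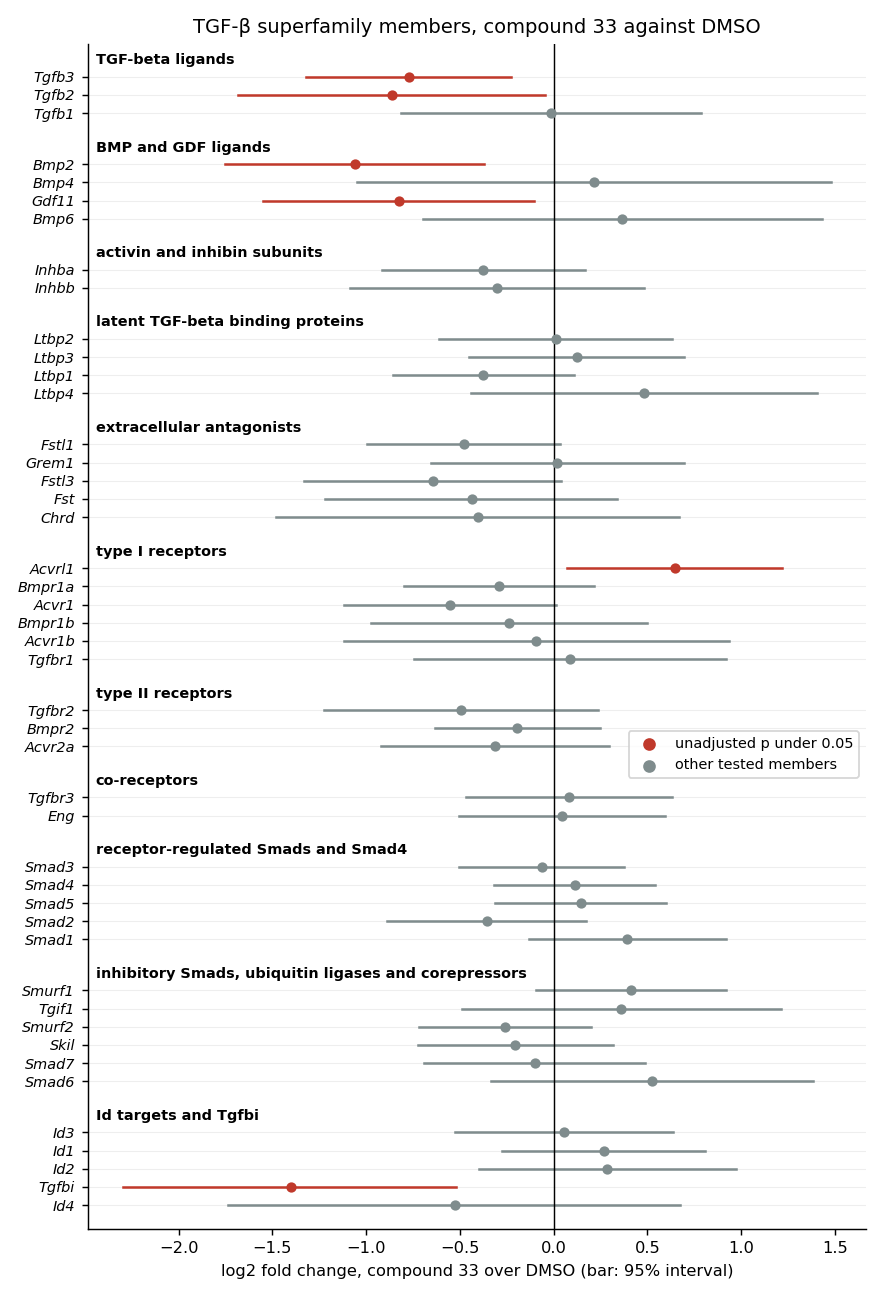
Log2 fold change of compound 33 over DMSO for each of the 45 tested members, with its 95% interval as a bar, grouped by role, in red where the unadjusted p is under 0.05. Intervals of 6 members leave out 0, those of Acvrl1 above it and those of Tgfb2, Tgfb3, Bmp2, Gdf11 and Tgfbi below it, without adjustment for the number of genes.

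Among the type I receptors, Acvrl1 (ALK1) and Acvr1 (ALK2), both of which pass on BMP-type signals to Smad1 and Smad5, had estimates of opposite sign. Acvrl1 had 88.6, 68.8 and 104 CPM in the compound 33 libraries, against 71.1, 37.4 and 58.5 CPM in the DMSO libraries. The groups overlapped only through compound 33 replicate 2 and DMSO replicate 1, and the fitted difference was 1.57-fold (log2 fold change 0.65, SE 0.27, edgeR adjusted p = 0.697). Acvr1 had 34.8, 42.7 and 47.9 CPM with compound 33, against 50.4, 83.5 and 50.5 CPM with DMSO. Its groups did not overlap, and DMSO replicate 2 stood above the other 5 libraries (log2 fold change -0.55, SE 0.26, edgeR adjusted p = 0.720, and -0.26 on the log2 scale without that library). The difference between these receptors was not tested.

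Acvrl1 is best known from endothelial cells, so endothelial markers were set beside it. Pecam1 and Tie1 had no read in any library, and the 6 endothelial markers summed to 4.63 to 9.54 CPM with compound 33 and 2.09 to 3.71 CPM with DMSO, below the level of Acvrl1 in every library. These sums did not overlap and were higher with compound 33, as was the estimate of Acvrl1. In the compound 33 libraries Tek had the most reads of them, at 7, 17 and 4, against 4, 1 and 3 with DMSO, while Emcn had reads only with DMSO. The part of endothelial cells in the level of Acvrl1 was not tested. Eng, or endoglin, the co-receptor that works with Acvrl1 in endothelium, averaged 45.4 ± 6.30 CPM with compound 33 and 44.1 ± 11.5 CPM with DMSO. On mm10 Acvrl1 lies on chromosome 15 at 101128522 to 101145336, where its exons overlap Gm16031 on the opposite strand.

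The remaining receptors had overlapping groups. Bmpr1a, a BMP receptor, averaged 56.1 ± 14.5 CPM with compound 33 and 68.3 ± 5.34 CPM with DMSO, and Bmpr1b, another BMP receptor, averaged 19.3 ± 4.55 CPM with compound 33 and 23.1 ± 9.70 CPM with DMSO. Tgfbr1, the type I receptor of TGF-β, averaged 11.2 ± 2.12 CPM with compound 33 and 10.4 ± 4.32 CPM with DMSO, and the activin receptor Acvr1b averaged 12.2 ± 4.18 CPM with compound 33 and 13.1 ± 9.22 CPM with DMSO. Tgfbr2, which binds TGF-β first, had 146, 141 and 107 CPM with compound 33, against 87.0, 281 and 185 CPM with DMSO. The DMSO libraries of Tgfbr2 lay on both sides of all compound 33 libraries (log2 fold change -0.49, SE 0.34, edgeR adjusted p = 0.851). Without DMSO replicate 2 the estimate was -0.052, and without DMSO replicate 1 it was -0.83. Bmpr2, the type II receptor of BMPs, averaged 82.7 ± 6.34 CPM with compound 33 and 94.7 ± 6.57 CPM with DMSO. Of the activin type II receptors, Acvr2a averaged 17.0 ± 3.32 CPM with compound 33 and 21.1 ± 2.98 CPM with DMSO, and Acvr2b had at most 8 reads in any library. Tgfbr3, or betaglycan, a co-receptor that presents TGF-β2, had 214, 274 and 171 CPM with compound 33, against 147, 267 and 209 CPM with DMSO. These groups of Tgfbr3 overlapped over most of their range (log2 fold change 0.08, SE 0.25).

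The receptor-regulated Smads and Smad4 had estimates between -0.36 and 0.39 on the log2 scale. Smad3, the main TGF-β effector on fibroblast promoters, had 96.6, 95.4 and 102 CPM in the compound 33 libraries, against 106, 89.3 and 112 CPM in the DMSO libraries. Compound 33 values lay within the DMSO range, and the 95% interval of the log2 fold change ran from -0.50 to 0.38. Smad4, the common partner, averaged 104 ± 5.36 CPM with compound 33 and 95.8 ± 4.93 CPM with DMSO, and Smad5 averaged 71.8 ± 1.16 CPM with compound 33 and 64.9 ± 9.88 CPM with DMSO. Smad2 averaged 55.3 ± 12.7 CPM with compound 33 and 70.6 ± 13.3 CPM with DMSO (log2 fold change -0.36, SE 0.25, edgeR adjusted p = 0.856). Smad1 had 28.7, 37.3 and 28.3 CPM with compound 33, against 24.9, 22.6 and 24.7 CPM with DMSO. All compound 33 libraries of Smad1 lay above all DMSO libraries, and the gene did not pass (log2 fold change 0.39, SE 0.24, edgeR adjusted p = 0.823).

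Among the negative regulators, the paired ubiquitin ligases Smurf1 and Smurf2, which mark Smads and receptors for degradation, had estimates of opposite sign. Smurf1 had 109, 104 and 71.5 CPM with compound 33, against 64.7, 65.0 and 83.6 CPM with DMSO. Smurf2 had 58.1, 51.8 and 58.2 CPM with compound 33, against 58.9, 74.4 and 67.2 CPM with DMSO. The groups of Smurf1 overlapped through replicate 3 of both groups, and those of Smurf2 did not overlap, though 2 compound 33 libraries lay within 1 CPM of the lowest DMSO library. Neither passed (log2 fold change 0.41, SE 0.23 for Smurf1 and -0.26, SE 0.21 for Smurf2, edgeR adjusted p = 0.799 and 0.890).

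Smad6 and Smad7, the inhibitory Smads, are themselves induced by the pathway. Smad6 averaged 9.84 ± 2.65 CPM with compound 33 and 6.82 ± 2.00 CPM with DMSO, and Smad7 averaged 17.2 ± 1.82 CPM with compound 33 and 18.4 ± 1.74 CPM with DMSO. The corepressor Skil averaged 47.9 ± 12.2 CPM with compound 33 and 55.4 ± 5.17 CPM with DMSO. Tgif1 averaged 71.3 ± 9.47 CPM with compound 33 and 55.0 ± 33.6 CPM with DMSO, where DMSO replicate 1 had 18.6 CPM and the other DMSO libraries 84.8 and 61.6 CPM.

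Of the target genes, Tgfbi stood lower with compound 33 and the Id genes overlapped between groups. Tgfbi, a secreted matrix protein named for its induction by TGF-β, had 7.95, 7.05 and 8.24 CPM in the compound 33 libraries, against 12.2, 33.8 and 15.3 CPM in the DMSO libraries. The groups did not overlap, and DMSO replicate 2 lay far above its group, so the fitted 2.64-fold difference (log2 fold change -1.40, SE 0.41, edgeR adjusted p = 0.500) was -0.83 on the log2 scale without that library. Id3, the Id gene with the highest read level, had 226, 204 and 122 CPM with compound 33, against 130.4, 173 and 226 CPM with DMSO. The groups of Id3 spanned nearly the same range (log2 fold change 0.05, SE 0.27). Id1 averaged 35.2 ± 5.86 CPM with compound 33 and 29.1 ± 5.30 CPM with DMSO. Id2 averaged 26.8 ± 8.16 CPM with compound 33 and 21.9 ± 7.70 CPM with DMSO, and Id4 averaged 4.47 ± 2.97 CPM with compound 33 and 6.54 ± 3.60 CPM with DMSO. On mm10 Tgfbi lies on chromosome 13 at 56609523 to 56639562, and its exons overlap no other annotated gene.

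Promoter sequences show where letters that Smad proteins are known to bind occur in these genes. Windows of 250 bases before to 50 after a start site, from RefSeq on GRCm38.p6, were held for 37 of the 51 members (49 windows) and searched on both strands for GTCTAGAC, the palindromic Smad binding element, for CAGACA, the core of the CAGA box bound by Smad3 and Smad4, and for GGCGCC, a palindrome of BMP-responsive enhancers. GTCTAGAC was found in 1 member window, that of Smad6, and in 0.213% of all 32851 windows. CAGACA was found in 11 member windows of 10 genes and in 21.0% of all windows, and GGCGCC in 15 member windows of 13 genes and in 11.9% of all windows. No motif contains another. The stretches below show one site each for the feedback gene Smad6, the ligand Tgfb2, the target Tgfbi and the BMP targets Id2 and Id4, read 5′ to 3′ on the gene's strand with the motif in capitals.
Smad6, chr9:64022045-64022074, minus strand: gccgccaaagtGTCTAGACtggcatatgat
Tgfb2, chr1:186706176-186706205, minus strand: ccttggtgatcaCAGACAgtgactactgca
Tgfbi, chr13:56609497-56609526, plus strand: cgtggtctgggaGGCGCCggctgcccttcc
Id2, chr12:25096306-25096335, minus strand: tcaggccccctgGGCGCCcagcgcacactg
Id4, chr13:48260956-48260985, plus strand: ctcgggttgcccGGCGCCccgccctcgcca
The Smad6 site spans the RefSeq start site of its window. Those of Tgfb2, Tgfbi, Id2 and Id4 begin 204, 77, 231 and 148 bases before the RefSeq start site. The gene positions given above come from GENCODE, and its gene starts differ for some genes. GENCODE begins Tgfbi at 56609523, inside the printed stretch. It places Id2 at 25093799 to 25097140, so the printed stretch of Id2 lies within that gene. A match is a description of the letters, not of binding. Tgfbi, Id2 and Id4 share GGCGCC, with log2 fold changes of -1.40, 0.29 and -0.52. The intervals of Id2, from -0.40 to 0.97, and of Id4, from -1.74 to 0.67, span both signs. The part of the motif in these estimates was not tested.

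Response genes outside the set were read from lists of 30 TGF-β response genes and 17 BMP response genes. These lists were chosen with earlier results of these data known, so their counts beside the background are not independent support. Of the 30 TGF-β response genes all were tested, 0 passed in edgeR, DESeq2 or limma-voom, and 6 reached an unadjusted p under 0.05 in edgeR, all lower with compound 33, where 3.23% of all tested genes did so in that direction. The median log2 fold change of this list was -0.19, with 22 of 30 negative. Its contractile genes were Acta2, smooth muscle actin, and Cnn1, calponin, with Tagln as a further one. Acta2 had 919, 1211 and 1406 CPM with compound 33, against 1653, 2086 and 2271 CPM with DMSO (log2 fold change -0.77, SE 0.24, edgeR adjusted p = 0.508). Cnn1 had 10.4, 21.1 and 28.8 CPM with compound 33, against 46.1, 33.4 and 49.8 CPM with DMSO. In both genes every compound 33 library lay below every DMSO library.

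The hyaluronan synthase gene Has2 had 11.6, 13.3 and 9.78 CPM with compound 33, against 29.2, 32.0 and 24.0 CPM with DMSO, the lowest p of this list (log2 fold change -1.28, SE 0.28, edgeR adjusted p = 0.266). Postn, or periostin, had 452, 386 and 322 CPM with compound 33, against 477, 854 and 542 CPM with DMSO. The groups of neither gene overlapped, and the log2 fold change of Postn was -0.69 with all libraries and -0.39 without DMSO replicate 2. Pmepa1, a feedback inhibitor that TGF-β induces, had overlapping groups and averaged 513 ± 32.8 CPM with compound 33 and 547 ± 42.1 CPM with DMSO. With DMSO replicate 2 left out the list's count was 3, where 5.91% of all tested genes reached that p in either direction, and with DMSO replicate 1 left out it was 9, where 9.17% did.

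Of the 17 BMP response genes 9 were tested, 0 passed in edgeR, DESeq2 or limma-voom, and 2 reached an unadjusted p under 0.05 in edgeR, both higher with compound 33, where 3.64% of all tested genes did so in that direction. Hes1, a transcriptional repressor also induced by Notch, had 33.0, 36.1 and 73.6 CPM with compound 33, against 27.0, 27.1 and 31.0 CPM with DMSO. Nov, the matricellular protein CCN3, had 53.2, 34.4 and 73.1 CPM with compound 33, against 29.7, 18.5 and 42.5 CPM with DMSO. Compound 33 replicate 3 was the highest library for both genes, and only the groups of Hes1 did not overlap. The log2 fold change of Hes1 was 0.74 (SE 0.31, edgeR adjusted p = 0.697) and 0.29 without that library, and that of Nov was 0.81 (SE 0.34, edgeR adjusted p = 0.697) and 0.52 without it. The median log2 fold change of the 9 was -0.09.

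**Figure D4:**
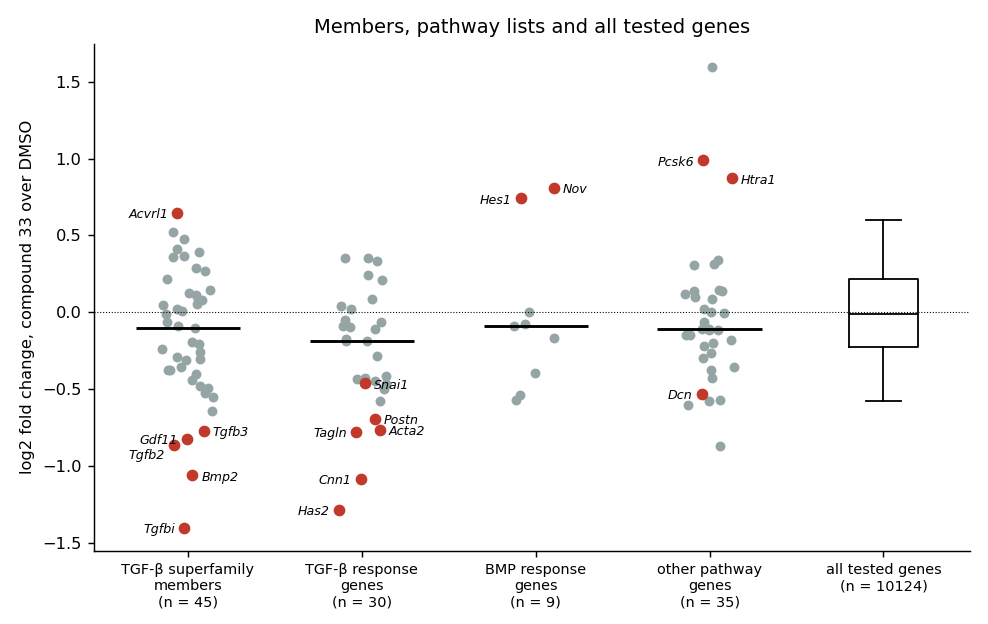
Log2 fold change of compound 33 over DMSO for the tested members and for the lists of TGF-β response, BMP response and other pathway genes, with each list's median as a line and genes with an unadjusted p under 0.05 in red and named. The box at the right shows all 10124 tested genes, with the median at -0.01, quartiles at -0.22 and 0.21, and whiskers at the 5th and 95th percentiles, -0.58 and 0.60.

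A list of 49 other genes of the pathway, covering further ligands, antagonists, activators and matrix proteins that hold the ligands, had 35 tested genes. Of these, 0 passed in edgeR, DESeq2 or limma-voom, and 3 reached an unadjusted p under 0.05 in edgeR, 2 higher and 1 lower, 8.57% of those tested and near the 6.87% of all tested genes. Htra1, a secreted serine protease reported to cleave TGF-β family ligands and matrix proteins, had 244, 257 and 196 CPM with compound 33, against 99.2, 135 and 146 CPM with DMSO. The groups of Htra1 did not overlap, with a fitted 1.83-fold difference (log2 fold change 0.87, SE 0.22, edgeR adjusted p = 0.401). Pcsk6, a proprotein convertase that cleaves ligand precursors, had 15.9, 24.9 and 40.7 CPM with compound 33, against 13.3, 11.3 and 16.4 CPM with DMSO. Dcn, or decorin, a matrix proteoglycan that binds TGF-β, had 573, 448 and 355 CPM with compound 33, against 822, 610.3 and 555 CPM with DMSO. The groups of Pcsk6 and of Dcn each overlapped at 1 library, and the log2 fold change of Pcsk6 was 0.99 with all libraries and 0.59 without compound 33 replicate 3. That of Dcn was -0.53 with all libraries and -0.34 without DMSO replicate 1. The highest estimate of this list belonged to Fbn2, named after its values were seen, a fibrillin gene with 85.6, 4.56 and 7.21 CPM with compound 33, against 7.95, 8.57 and 13.9 CPM with DMSO, so that it rested on 1 library.

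Leaving out libraries moved the sizes of the 6 members' estimates but not their signs, in these fits and in the other alternatives. The 6 had been picked by their p in the fit of all libraries. Each refit shared most or all of those libraries, so the kept signs are not separate support. Without DMSO replicate 1, 9 members reached an unadjusted p under 0.05 in edgeR, and the share of all tested genes that did so was also higher, at 9.17% against 6.87% with all libraries. Without compound 33 replicate 1 the number was 3, namely Bmp2, Tgfbi and Tgfb3, and the share of all tested genes was 5.5%. The log2 fold change of Tgfb3 ran from -0.92 to -0.63 over the 6 fits with a library left out, and that of Gdf11 from -1.01 to -0.62. That of Bmp2 ran from -1.49 to -0.83 and that of Acvrl1 from 0.44 to 0.85. Tgfb2 had the widest range relative to its size, from -1.23 without compound 33 replicate 3 to -0.55 without compound 33 replicate 1, and it was -0.56 without DMSO replicate 3. Of other members described above, the estimate of Inhba was -0.24 without DMSO replicate 1, that of Ltbp1 -0.23 without compound 33 replicate 3 and that of Smurf2 -0.17 without DMSO replicate 2. Without compound 33 replicate 2, the estimate of Smad1 was 0.25 and that of Smad2 -0.16. The lowest adjusted p of any member in these fits was 0.241, for Tgfbi without DMSO replicate 1.

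**Figure D5:**
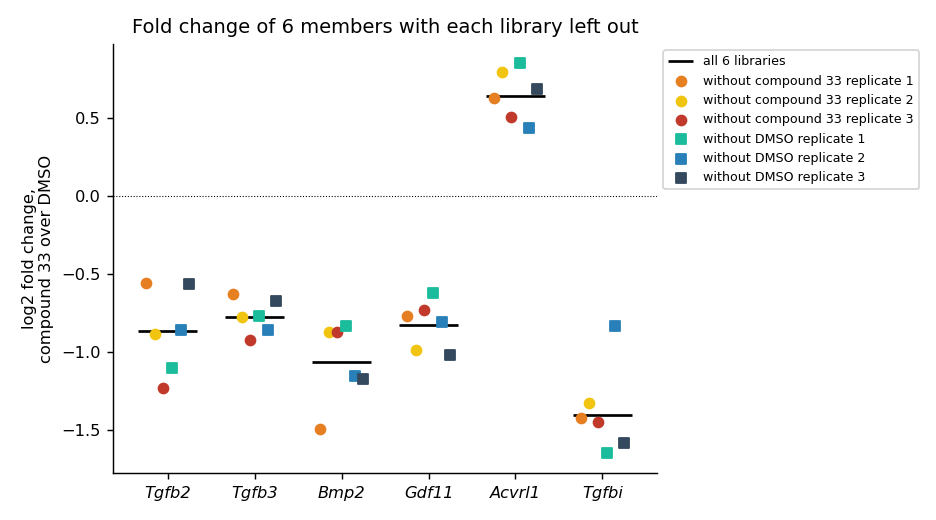
Log2 fold change of compound 33 over DMSO for the 6 members with an unadjusted p under 0.05, with all libraries (line) and with each library left out in turn (points, coloured by the library left out). All points of Tgfb2, Tgfb3, Bmp2, Gdf11 and Tgfbi lie below 0 and all points of Acvrl1 above it, and for Tgfbi the fit without DMSO replicate 2 lies nearest to 0, at -0.83.

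In the authors' deposited table, 45 of the 51 members have an adjusted p, 0 of them under 0.05, where 0.179% of all genes with one were. The lowest adjusted p of a member in the authors' deposited table is 0.363, for Bmp2, with a log2 fold change of -1.06. The 6 members with an unadjusted p under 0.05 in the authors' deposited table, where 4.2% of all genes were, are Acvrl1, Bmp2, Fstl1, Tgfb2, Tgfb3 and Tgfbi, so Fstl1 stands there in place of Gdf11, whose unadjusted p in that table is 0.0539.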

How the data were processed

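Per the submitters' processing notes, FastQC 0.11.9, HISAT2 2.2.1, featureCounts 2.0.3, DESeq2 and the build mm10 were used on QuantSeq 3′ libraries from an Ion Proton instrument. The gene annotation, the strand setting and the handling of multi-mapping reads were not stated in these sources. Deposited were whole-number read counts per gene symbol, and the authors' comparison table. Its mean of normalized counts is a signal, the fold change and its error are log2 values, the Wald statistic is a score, and p-values are raw and adjusted, all as deposited by the authors.

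The deposited counts went through edgeR 4.0.16 (R 4.3.3): filterByExpr (minimum count 10, 10124 genes kept), TMM scaling, and the robust quasi-likelihood F test without covariates, two-sided, fitted to all genes and adjusted by Benjamini-Hochberg, threshold 0.05. The edgeR, DESeq2 and limma-voom fits were tested on simulated counts. Standard errors are the unshrunk log2 fold change over the square root of F. DESeq2 1.42.0 and limma 3.58.1 were alternatives, with other scalings and filters, the replicate block and each library left out. Symbols were placed with GENCODE M21 on mm10.

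Members and lists were chosen with earlier results of these data known. Values in every library are given for members with an unadjusted p under 0.05, the most abundant member of each role and members whose groups do not overlap; of other lists, up to 4 genes with the lowest p. Other genes were named after their values were seen. Some genes are not reported here.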

Additional observations from a re-analysis of the deposited data

How the results depend on the processing

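The count of members that passed was 0 under all 15 alternatives, and so were the counts of TGF-β response, BMP response and other pathway genes. Over all genes, where 3 passed in edgeR, 21 passed with no low-count filter, 18 in DESeq2 and 7 with the replicate block, and 1 (without compound 33 replicate 1 or DMSO replicate 3) to 7 (without DMSO replicate 1) with a library left out. Replicate numbers are shared between groups, but the sources state no pairing, so the main fit had no block. Deviations from the group means correlated at -0.03, 0.21 and 0.08 for numbers 1, 2 and 3. With the replicate block 6 members reached an unadjusted 0.05 in edgeR, as without it. The lowest edgeR adjusted p of a member was 0.2 with that block and 0.5 in the main fit. Over all alternatives the lowest was 0.155, in edgeR with no low-count filter. With a library left out, 3 to 9 members and 3 to 9 TGF-β response genes did so; these 2 counts and the count of negative members, 24 to 28 over all alternatives, were added after seeing the data. The sign of 15 members, with estimates of -0.40 (Chrd) to 0.37 (Bmp6), changed in at least 1 fit. Tgfb1 was 0.067 in limma-voom and 0.039 with the replicate block. Ltbp2 was -0.019 with total counts only, -0.10 in limma-voom and -0.091 with the replicate block, and Acvr1b was 0.11 in limma-voom. With a library left out, log2 fold changes ran from -0.24 to 0.29 for Tgfb1, -0.60 to 0.61 for Bmp4, -0.19 to 0.75 for Bmp6, -0.39 to 0.29 for Ltbp2, -0.23 to 0.30 for Ltbp3, -0.23 to 0.48 for Grem1, -0.72 to 0.23 for Chrd, -0.17 to 0.39 for Tgfbr1, -0.52 to 0.044 for Bmpr1b, -0.45 to 0.56 for Acvr1b, -0.11 to 0.31 for Tgfbr3, -0.15 to 0.20 for Eng, -0.15 to 0.0069 for Smad3, -0.037 to 0.80 for Tgif1 and -0.12 to 0.29 for Id3. The cause of these sign changes was not tested. Other scalings moved the median of all genes by no more than 0.01. The 6 members that were not tested, Bmp7, Gdf5, Gdf6, Gdf10, Nog and Acvr2b, had too few reads to pass the filter on low counts.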

Other observations

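The spread between libraries of one group differed between members. The ratio of the highest to the lowest library had a median of 1.49 over the 45 tested members with compound 33 and 1.70 with DMSO, and it was over 2 for 8 members with compound 33 and for 14 with DMSO. DMSO replicate 1 was the lowest library of its group for 22 of the 45 members, among them Tgfbr2, Tgif1, Tgfb2 and Tgfbi, and DMSO replicate 3 for 8. In the compound 33 group, replicate 3 was the lowest for 20 and the highest for 17. These counts and ratios were not made over all tested genes, so whether they are particular to the members was not tested. Bmp4, a BMP ligand, and Id4, a BMP target, had ratios of 4.63 and 3.68 in the DMSO group, at levels where few reads were counted for Id4.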
